A study of Mus musculus with 11 samples.

Results

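Cytochrome P450 genes of families 1 to 4 were examined in mouse colon, in controls and after the kinase inhibitor imatinib. A gene was included when its only symbol in the array's annotation was Cyp, a family number from 1 to 4, a subfamily letter and a gene number. This gave 54 genes of 18193 measured: 3 of family 1, 35 of family 2, 5 of family 3 and 11 of family 4. Each gene was read from 1 probe set, the one with the highest mean signal over the 11 arrays. Another 4 probe sets, which carry the symbols of 2 P450 genes at once, were left out, so Cyp2c66 and Cyp4a10 were not analysed here.

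The arrays held total RNA from whole colon of adult C57BL/6 mice. There were 3 control arrays, and 4 arrays each from 3 h and 12 h after an injection of imatinib. Imatinib is an inhibitor of the Abl, Kit and PDGF receptor kinases. The sources used here give no dose, sex or clock time of harvest, and samples from mice injected with vehicle were not analysed here. Drug, injection and hour of killing therefore cannot be told apart in either comparison with control. No label states that the numbered samples came from different mice, so a p-value measures the spread between samples, which may be technical.

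Cytochrome P450 enzymes of these families are haem proteins of the endoplasmic reticulum that insert an oxygen atom into their substrate, using electrons passed on from NADPH by P450 oxidoreductase. Families 1 to 3 oxidise drugs, dietary compounds, steroids and arachidonic acid, while family 4 mainly hydroxylates fatty acids and eicosanoids at the end of the chain. Ligand-activated receptors control many of the genes: AhR the Cyp1 genes, CAR and PXR many Cyp2b, Cyp2c and Cyp3a genes, and PPAR alpha the Cyp4a genes. Imatinib is itself a P450 substrate, cleared in people mainly by CYP3A enzymes.

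Promoter sequence is shown for the colonic Cyp2c genes, which lie on one chromosome and of which 1 was called, and for Cyp3a25 and Cyp4b1, which rose. Each line gives the 250 bases before the transcription start, read 5′ to 3′ on the gene's own strand, from RefSeq on GRCm38.p6, in which 43 of the 54 genes had an entry. Capitals mark a match on either strand to TATAAA (the TATA box), CAAAGTCCA (bound by HNF4, the nuclear receptor that maintains gut epithelium and liver) or AGGTCA (the core of many nuclear receptor sites, TGACCT on the other strand).
Cyp2c55, chr19:39006769-39007018, plus strand: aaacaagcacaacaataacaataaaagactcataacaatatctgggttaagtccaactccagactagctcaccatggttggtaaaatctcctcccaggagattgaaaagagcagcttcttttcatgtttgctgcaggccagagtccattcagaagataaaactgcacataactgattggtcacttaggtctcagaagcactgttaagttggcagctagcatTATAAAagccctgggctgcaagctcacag
Cyp2c65, chr19:39060756-39061005, plus strand: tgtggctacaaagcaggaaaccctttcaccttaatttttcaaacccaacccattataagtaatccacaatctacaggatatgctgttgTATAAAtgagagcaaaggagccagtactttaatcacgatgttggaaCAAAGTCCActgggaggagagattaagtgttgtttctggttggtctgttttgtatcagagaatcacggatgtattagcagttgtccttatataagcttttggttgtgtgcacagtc
Cyp2c68, chr19:39741102-39741351, minus strand: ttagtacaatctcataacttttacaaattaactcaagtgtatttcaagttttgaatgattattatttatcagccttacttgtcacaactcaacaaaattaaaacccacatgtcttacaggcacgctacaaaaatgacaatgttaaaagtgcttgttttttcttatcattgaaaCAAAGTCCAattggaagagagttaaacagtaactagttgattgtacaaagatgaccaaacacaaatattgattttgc
Cyp3a25, chr5:146009619-146009868, minus strand: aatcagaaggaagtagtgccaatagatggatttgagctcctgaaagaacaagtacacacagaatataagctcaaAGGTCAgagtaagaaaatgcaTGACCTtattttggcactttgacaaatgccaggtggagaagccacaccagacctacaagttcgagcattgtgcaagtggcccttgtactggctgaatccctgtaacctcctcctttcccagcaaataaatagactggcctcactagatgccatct
Cyp4b1, chr4:115647722-115647971, minus strand: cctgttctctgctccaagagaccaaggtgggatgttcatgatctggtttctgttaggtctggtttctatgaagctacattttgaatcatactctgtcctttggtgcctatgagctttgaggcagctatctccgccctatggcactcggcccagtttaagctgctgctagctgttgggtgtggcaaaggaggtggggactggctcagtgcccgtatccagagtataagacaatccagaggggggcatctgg

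CAAAGTCCA lay 116 to 108 bases before the start of Cyp2c65 and 77 to 69 bases before that of Cyp2c68, and Cyp2c55 had no match in its window. Cyp2c55 in turn had TATAAA 29 to 24 bases before its start, while the match in Cyp2c65 lay farther out, 162 to 157 bases before. Cyp3a25 held AGGTCA 176 to 171 bases before its start, and the same letters on the other strand 155 to 150 bases before. None of these motifs was found in the Cyp4b1 sequence. In windows from 250 bases before to 50 bases after the start, both strands searched, CAAAGTCCA was found for 5 of the 43 matched genes (11.6%: Cyp2c65, Cyp2c68, Cyp2c70, Cyp3a11 and Cyp3a16) and for 0.48% of 27025 genes in the RefSeq table. TATAAA was found for 39.5% of the matched genes and 14.16% of all, and AGGTCA for 27.9% and 16.04%. The AhR core GCGTG was found for 25.6% and 32.46%. The PAR bZIP sites TTATGTAA and TTACGTAA were found for 0 of the 43 and for 0.95% and 0.11% of all. The motif searches share these windows and the genes share ancestry, and a match is a description of letters, not a binding site.

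Signals are linear intensities scaled so that the trimmed mean of every array is 100, and array medians lay between 16.8 and 23.9. Levels of different probe sets are not comparable, so changes were tested only within a gene. Shared signal cut-offs, the choice of the brightest probe set and summed marker signals are rough guides. A signal of at least 50 on at least 3 arrays was reached by 19 of the 54 genes (35.2%), against 53% of all genes. The mean lay below 16, the offset added before taking log2, for 28 of the 54 (51.9%) against 32.2% of all genes, and 18 were below 16 on all 11 arrays. The tissue had the markers of colon, such as Car1, a carbonic anhydrase of colonic surface cells, at 4933.1 to 9844.3. Of 12 measured small intestine markers 4 (Lct, Apoa4, Fabp1 and Treh) were below 16 on all arrays, while Lyz1 (1216.1 to 1943.1), Enpep (109.4 to 298.4) and Rbp2 (79.8 to 195.9) were well above it, and Enpep rose by 0.87 ± 0.17 (SE; limma adjusted p = 0.0295) at 12 h, a call lost without any 1 control array or 12 h replicate 2 or 3 (highest 0.125). Of 13 measured hepatocyte markers 4 (Fga, Fgb, Ahsg and Hpx) were below 16 on all arrays and Alb lay between 4.2 and 43.5, while Ttr (238.2 to 701.9), Tat (83.7 to 230.3) and Cps1 (30.1 to 156.7) had clear signal. Pancreatic acinar transcripts stood apart on 5 arrays, control replicate 1, 3 h replicate 3 and 12 h replicates 1, 3 and 4, where 13 acinar markers had a mean log2 signal of 10.76 to 13, against 5.12 to 7.31 on the other 6 arrays.

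The first question was which of these genes differed in colon 3 h after imatinib. Cyp2c65, Cyp3a25 and Cyp4b1 rose, and none of the 54 fell. Family 2, family 3 and family 4 gave 1 riser each. The 3 risers are 5.56% of the genes, where 2.54% of all genes were called in either direction, 1.43% rose and 1.11% fell (limma on log2(signal + 16), Benjamini-Hochberg adjusted p under 0.05 over 18193 genes). All 3 h arrays were above all control arrays for 7 of the 54 (13%) and below them for 0, where the shares over all genes were 6.76% and 8.55%. The 7 were Cyp2c65, Cyp2d26, Cyp2e1, Cyp3a13, Cyp3a25, Cyp4b1 and Cyp4f13. The median log2 change of the 54 was 0.05, beside −0.02 over all genes, but 28 of the 54 had a mean below the offset. For the 19 with a signal of at least 50 on at least 3 arrays it was 0.27, beside −0.03 over all genes at that level. Cyp4b1, 1 of the 19, was below 50 on control replicates 1 and 2.

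Cyp2c65 (probe set 1429994_s_at) encodes an arachidonic acid oxidase of the gut. Its signal was 274.5, 514.2 and 831.6 on the control arrays, 1341.1, 1717.4, 1783.0 and 1315.1 at 3 h, and 516.5, 1040.9, 1096.1 and 1589.8 at 12 h. Every 3 h array was above every control array, and the 12 h arrays reached from within the control range to within the 3 h range. Group means rose from 540.1 ± 279 (SD, n = 3) in control to 1539 ± 245 (SD, n = 4) at 3 h. This rise was 1.60 ± 0.37 (SE) on the log2 scale, or 3.04-fold, with a limma adjusted p of 0.0428. At 12 h the mean was 1061 ± 439 (SD, n = 4) and the change from control, 0.98 ± 0.37 (SE), did not pass (limma adjusted p = 0.217). The change between 12 h and 3 h, −0.62 ± 0.34 (SE), did not pass either (limma adjusted p = 0.388). The 3 h call was lost without control replicate 1 or 2, any 3 h array, or 12 h replicate 2 or 3 (limma adjusted p up to 0.176). Without the 5 arrays high in acinar transcripts the change was 1.13 (limma adjusted p = 0.13), and the suffix of the probe set marks probes shared by several transcripts, so a close relative may add to the signal.

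Cyp2c55, its neighbour on chromosome 19, encodes an arachidonic acid hydroxylase known for its abundance in colon. Its signal was 6380.9, 6051.2 and 5792.4 in control, 7508.3, 8125.6, 8241.0 and 6279.0 at 3 h, and 3421.1, 5087.9, 8036.5 and 7760.2 at 12 h. The lowest 3 h array lay within the control range, and the 12 h arrays lay on both sides of it. The 3 h change was 0.30 ± 0.25 (SE; limma adjusted p = 0.648), with a 95% interval from −0.231 to 0.839, and the 12 h change was −0.08 ± 0.25 (SE; limma adjusted p = 0.926).

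Cyp2c68, the third colonic member of the subfamily, was at 1003.6, 819.8 and 402.0 in control, 454.5, 418.6, 353.5 and 480.3 at 3 h, and 239.2, 649.2, 434.7 and 735.7 at 12 h. The control arrays spread widest in linear signal and the 12 h arrays on the log2 scale, and control replicate 3 lay within the range of both later groups. Its changes, −0.69 ± 0.36 (SE) at 3 h and −0.53 ± 0.36 (SE) at 12 h, did not pass (limma adjusted p = 0.408 and 0.534). The other 8 measured Cyp2c genes stayed at or below 37.0 on all arrays, and Cyp2c65 was the only one of the 11 that passed in any comparison.

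**Figure D1:**
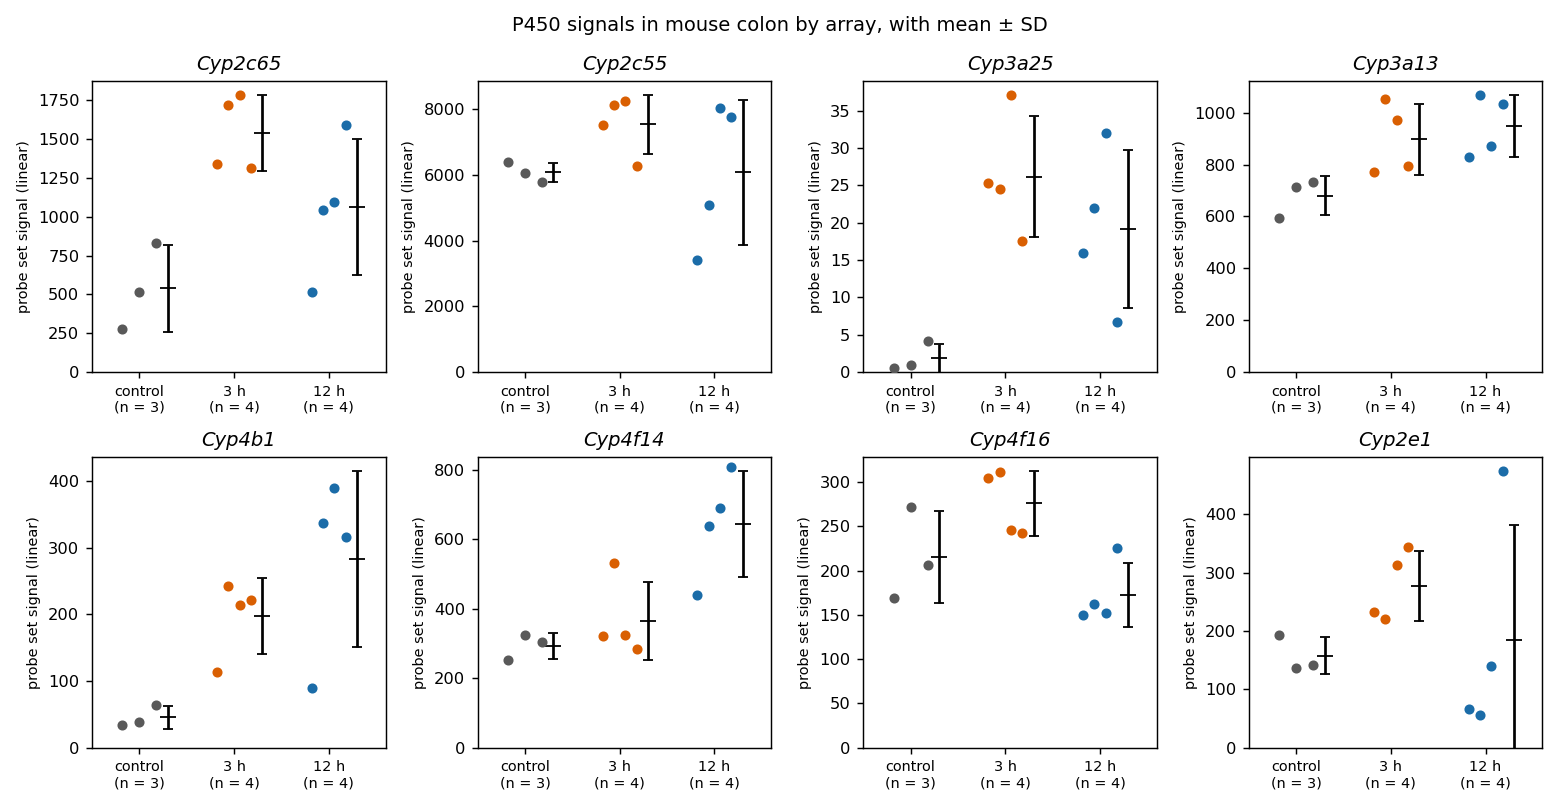
Signal (linear intensity, y axis) of 8 P450 genes on each array, by group on the x axis; points are arrays and bars give the mean ± SD, with the lower bars of Cyp2e1 at 12 h and Cyp3a25 in control stopped at 0 by the axis. For Cyp3a25 and Cyp4b1 all arrays at 3 h and 12 h lie above all control arrays, while Cyp2c55 and Cyp2e1 at 12 h reach from below to above the control values.

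In family 3, Cyp3a25 encodes a testosterone hydroxylase of liver and intestine. Its signal (probe set 1424973_at) was 0.5, 0.9 and 4.1 in control, 25.3, 24.5, 37.1 and 17.6 at 3 h, and 15.9, 22.0, 32.0 and 6.7 at 12 h. All control arrays were below 16 and all 3 h arrays above it, and all 12 h arrays were above control. The 3 h change was 1.23 ± 0.22 (SE, limma adjusted p = 0.0149), or 2.34-fold with the offset. At such low control signal the fold depends on the offset, and its true size cannot be read. The 12 h change, 0.93 ± 0.22 (SE), did not pass (limma adjusted p = 0.06). Leaving out control replicate 1 or 2 ended the 3 h call (highest limma adjusted p 0.0746), and without the arrays high in acinar transcripts the change was 1.06 (limma adjusted p = 0.0516).

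Cyp3a13, the only Cyp3a gene with a signal of at least 50 on 3 arrays, encodes a steroid and drug oxidase found in intestine. It was at 593.6, 715.0 and 731.9 in control, 771.7, 1053.0, 970.1 and 792.9 at 3 h, and 827.9, 1069.6, 870.0 and 1032.3 at 12 h. All arrays after imatinib were above all control arrays. The changes of 0.38 ± 0.14 (SE) at 3 h and 0.47 ± 0.14 (SE) at 12 h were small, and neither passed (limma adjusted p = 0.204 and 0.125). Cyp3a11, the main PXR-induced Cyp3a gene of mouse liver, did not exceed 12.4 on any array, and Cyp3a16 and Cyp3a44 did not exceed 26.0.

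Cyp4b1 (probe set 1416194_at) encodes a fatty acid hydroxylase that also activates certain plant toxins. Its signal was 33.7, 38.1 and 64.6 in control, 113.4, 242.4, 214.1 and 221.4 at 3 h, and 89.8, 337.7, 389.5 and 316.3 at 12 h. Both later groups lay wholly above control, and replicate 1 was the lowest array in each of them. From 45.5 ± 16.7 (SD, n = 3) the mean went to 197.8 ± 57.5 (SD, n = 4) at 3 h and 283.3 ± 133 (SD, n = 4) at 12 h. The log2 changes were 1.78 ± 0.41 (SE; limma adjusted p = 0.0423; 3.44-fold) and 2.15 ± 0.41 (SE; limma adjusted p = 0.027; 4.44-fold). The 3 h call was lost without any 1 of the control arrays, 3 h replicate 2, 3 or 4, or 12 h replicate 2 (limma adjusted p up to 0.168), and the 12 h call without control replicate 1 or 2 or 12 h replicate 2 or 3 (up to 0.112). Without the 5 arrays high in acinar transcripts the changes were 1.60 and 2.42 (limma adjusted p = 0.133 and 0.258).

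The second question was which genes differed at 12 h. Cyp4b1 and Cyp4f14, both fatty acid hydroxylases of family 4, rose and none of the 54 fell, which is 3.7% of the genes where 1.62% of all genes were called and 0.781% rose. The 12 h arrays lay wholly above control for 4 genes (7.41%; Cyp3a13, Cyp3a25, Cyp4b1 and Cyp4f14) and wholly below for 0, against 6.02% and 6.96% of all genes. The median change of the 54 was 0.05, beside −0.01 over all genes. For the 19 with a signal of at least 50 on at least 3 arrays it was 0.10, beside −0.005 over all genes at that level. Both comparisons share the control arrays, so Cyp4b1 being high in both is not 2 independent findings.

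Cyp4f14 (probe set 1419559_at) encodes a leukotriene B4 hydroxylase, an enzyme that inactivates this attractant of neutrophils. Its signal was 252.5, 325.8 and 303.8 in control, 321.6, 532.5, 324.8 and 283.5 at 3 h, and 440.4, 639.5, 690.8 and 808.2 at 12 h. The 3 h arrays overlapped control except for replicate 2, and all 12 h arrays were above control. Its mean was 294 ± 37.6 (SD, n = 3) in control, 365.6 ± 113 (SD, n = 4) at 3 h and 644.7 ± 153 (SD, n = 4) at 12 h. The 12 h change was 1.07 ± 0.22 (SE; limma adjusted p = 0.0383), or 2.1-fold, and the 3 h change of 0.27 ± 0.22 (SE) did not pass (limma adjusted p = 0.665). The difference between 12 h and 3 h, 0.80 ± 0.21 (SE), missed the threshold (limma adjusted p = 0.0531). The 12 h call was lost without any 1 of 8 arrays (the control arrays, 3 h replicates 1 and 3, and 12 h replicates 2, 3 and 4; limma adjusted p up to 0.149), and without the arrays high in acinar transcripts the change was 0.99 (limma adjusted p = 0.46).

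Between 12 h and 3 h Cyp4f16 alone was called, and it fell, 1.85% of the 54 genes where 4.08% of all genes were called, 1.99% rose and 2.09% fell. Arrays of these groups did not overlap for 3 of the 54 (5.56%), Cyp1a2 higher and Cyp2d40 and Cyp4f16 lower at 12 h, where the shares over all genes were 6.28% higher, 5.26% lower and 11.5% in all. Cyp1a2 and Cyp2d40 did not exceed 21.8 on any array. The median change of the 54 was 0.03, beside 0.01 over all genes.

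Cyp4f16 (probe set 1417277_at), another gene of the leukotriene and fatty acid hydroxylase subfamily, was at 168.8, 271.8 and 206.1 in control, 304.9, 310.7, 246.3 and 242.6 at 3 h, and 150.3, 162.7, 151.9 and 225.9 at 12 h. The control arrays lay between the other groups and overlapped both. The fall from 276.1 ± 36.7 (SD, n = 4) at 3 h to 172.7 ± 35.9 (SD, n = 4) at 12 h was −0.64 ± 0.16 on the log2 scale (SE; limma adjusted p = 0.0483). Changes from control were 0.35 ± 0.17 (SE) at 3 h and −0.29 ± 0.17 (SE) at 12 h, and neither passed (limma adjusted p = 0.384 and 0.475). The second probe set of the gene changed by −0.20 between 12 h and 3 h, and the call was lost without any 1 of 8 arrays (all but control replicates 1 and 2 and 12 h replicate 4; limma adjusted p up to 0.131). Without the arrays high in acinar transcripts the change was −0.75 (limma adjusted p = 0.303).

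Cyp4f13, the neighbour of Cyp4f14 on chromosome 17, was at 85.7, 120.0 and 67.6 in control, 136.5, 129.3, 140.6 and 150.5 at 3 h, and 89.1, 92.4, 151.7 and 142.7 at 12 h. The 3 h arrays were above control, while the 12 h arrays overlapped it. Its change of 0.56 ± 0.19 (SE) at 3 h did not pass (limma adjusted p = 0.173). Cyp4v3, a hydroxylase of medium-chain fatty acids, lay between 43.2 and 79.7 on all arrays, with a 3 h change of 0.30 ± 0.12 (SE) that did not pass (limma adjusted p = 0.248) and −0.01 in its second probe set. The other 6 genes of family 4, among them the PPAR alpha target Cyp4a14, stayed at or below 31.5.

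**Figure D2:**
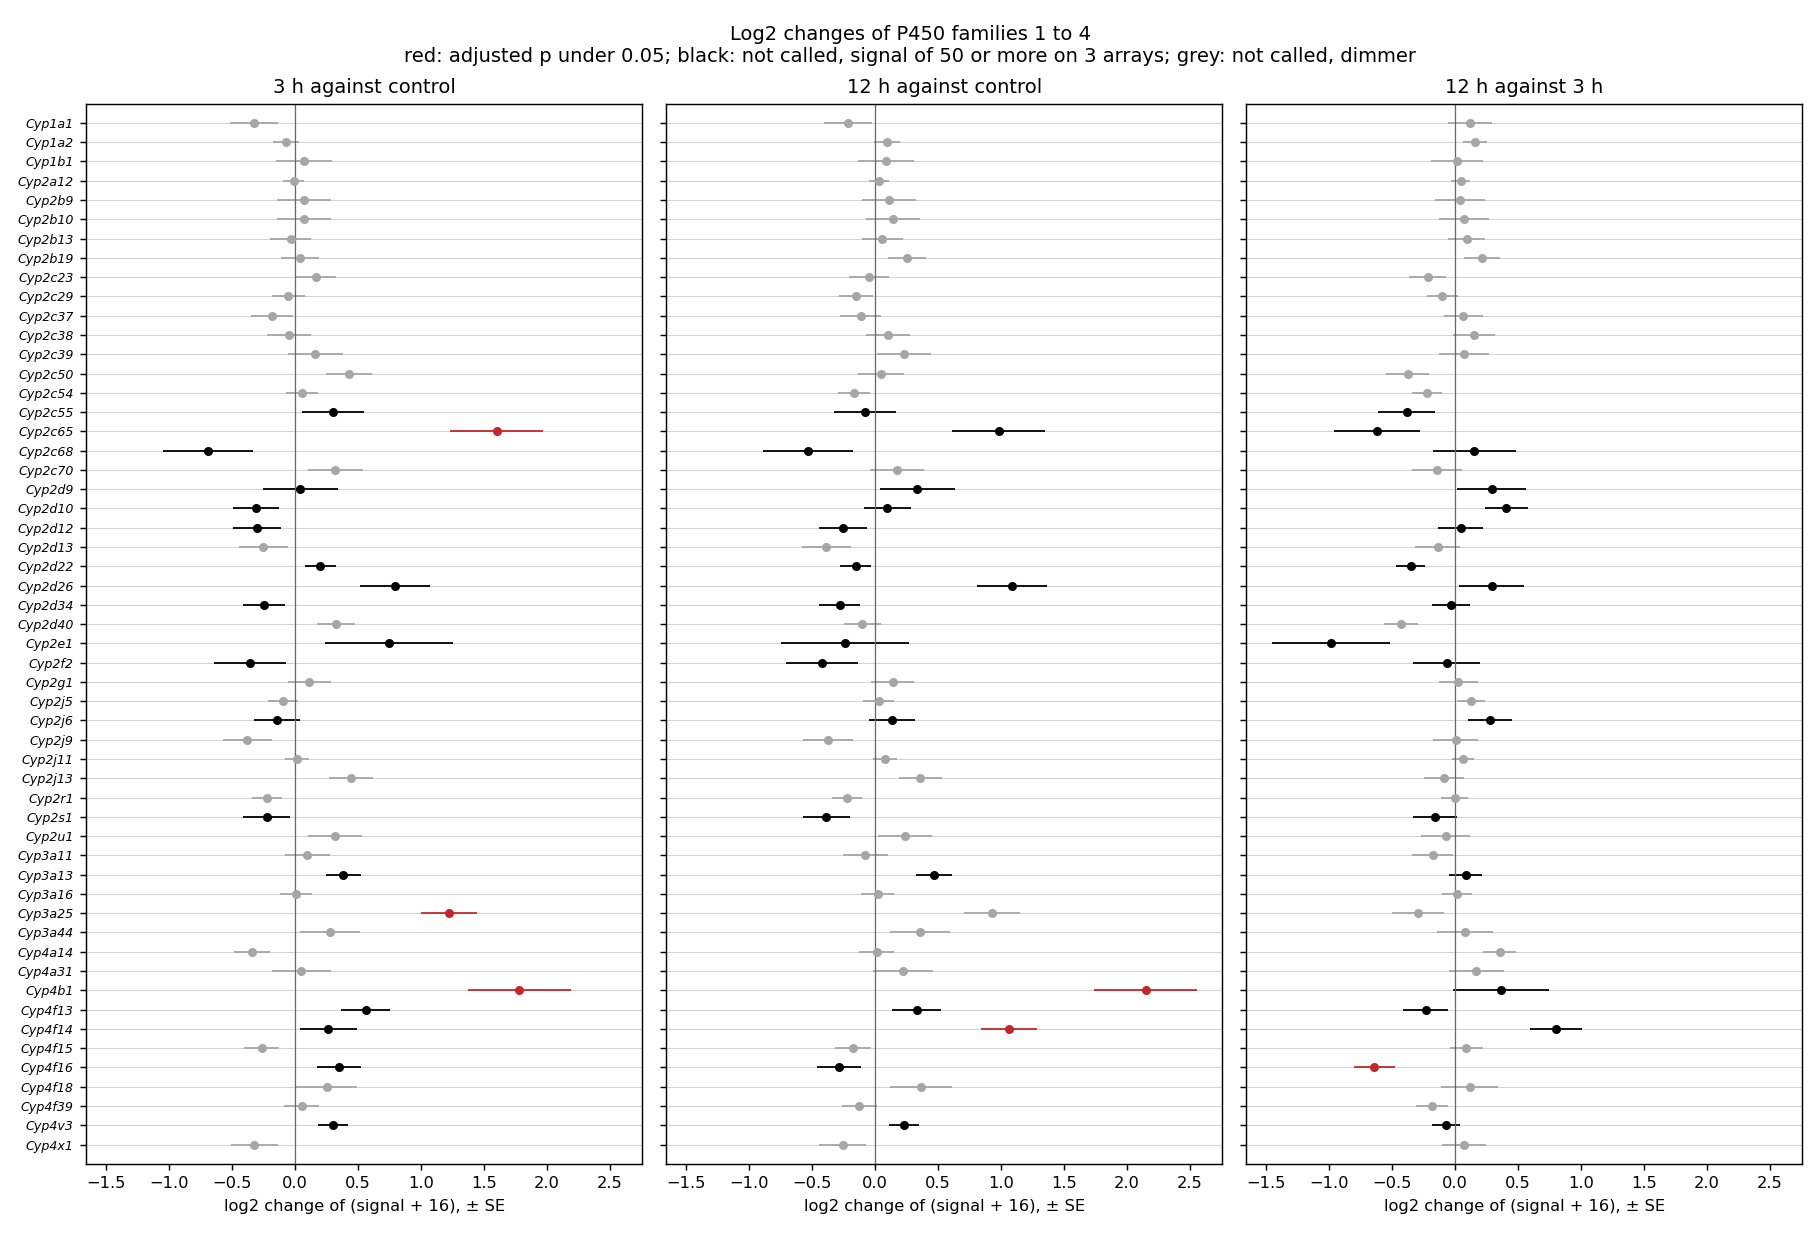
Log2 change with its SE (x axis) of all 54 genes in each of the 3 comparisons; red marks a call at limma adjusted p under 0.05, black an uncalled gene with a signal of at least 50 on at least 3 arrays, and grey a dimmer gene. Calls are Cyp2c65, Cyp3a25 and Cyp4b1 at 3 h, Cyp4b1 and Cyp4f14 at 12 h, and Cyp4f16 between 12 h and 3 h, and most of the other genes lie near 0.

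No gene of the Cyp2d subfamily was called, and Cyp2d26 had the largest change among its 8 genes. It was at 61.1, 65.9 and 74.8 in control, 129.5, 139.3, 115.2 and 130.5 at 3 h, and 72.7, 170.5, 235.6 and 217.4 at 12 h. All 3 h arrays were above control, and so were 3 of the 4 at 12 h, replicate 1 lying within the control range. The changes of 0.80 ± 0.28 (SE) and 1.09 ± 0.28 (SE) did not pass (limma adjusted p = 0.179 and 0.0787). Without 12 h replicate 1 both passed (limma adjusted p = 0.0067 at 3 h, and 0.000603 for a change of 1.42 at 12 h). That omission left the 3 h change at 0.80, so only its estimated spread differed. With the replicate number as a block neither passed (changes of 0.73 and 1.02, limma adjusted p = 0.243 and 0.12). Without the arrays high in acinar transcripts the changes were 0.79 and 1.11. The other 5 Cyp2d genes with a signal of at least 50 on 3 arrays overlapped control at both times. Cyp2d22, the mouse counterpart of human CYP2D6, changed by −0.35 ± 0.11 (SE) between 12 h and 3 h without passing (limma adjusted p = 0.117), and Cyp2d34 by −0.25 at 3 h and −0.28 at 12 h.

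Cyp2e1 oxidises ethanol and acetone and is known from liver and fat as well as gut. Its signal was 193.6, 136.7 and 142.5 in control, 231.9, 220.8, 312.8 and 343.8 at 3 h, and 66.1, 55.9, 139.9 and 474.3 at 12 h. The 3 h arrays were above control, and the 12 h arrays held both the lowest and the highest values of the series. Neither the 3 h change, 0.75 ± 0.51 (SE), nor the 12 h change, −0.24 ± 0.51 (SE), passed (limma adjusted p = 0.561 and 0.886). Adipocyte markers (14 of 16 measured, the hormone Lep between 0.5 and 12) had a mean log2 signal of 7.09 to 7.27 in control, 7.65 to 7.96 at 3 h and 7.16 to 7.91 at 12 h. Their summed signals were 3157 to 3457, 5562 to 7123 and 3249 to 6540, so all 3 h arrays were above control here too. Among the 12 h arrays the 2 lower in Cyp2e1 were the 2 lower in adipocyte markers, at 7.28 and 7.16 against 7.75 and 7.91. Those 2 arrays were below all control arrays in Cyp2e1 (66.1 and 55.9), but not below the control range in adipocyte markers. The part of adipocytes in the Cyp2e1 values was not tested. In bulk tissue fewer cells of a type and less RNA per cell cannot be told apart.

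Among the remaining family 2 genes, Cyp2s1, a P450 of epithelia, had means of 569.3 ± 56.5 (SD, n = 3) in control, 484.6 ± 44.6 (SD, n = 4) at 3 h and 445.3 ± 144 (SD, n = 4) at 12 h. Its 12 h change of −0.39 ± 0.19 (SE) did not pass (limma adjusted p = 0.351), and 12 h replicate 4, at 652.7, was above all control arrays. Cyp2f2, known for naphthalene oxidation in lung, lay between 48.8 and 157.9, and Cyp2j6 between 55.9 and 125.1, with overlapping groups throughout. The probe sets of Cyp2j6 changed in opposite directions between 12 h and 3 h, 0.28 and −0.13, without passing.

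**Figure D3:**
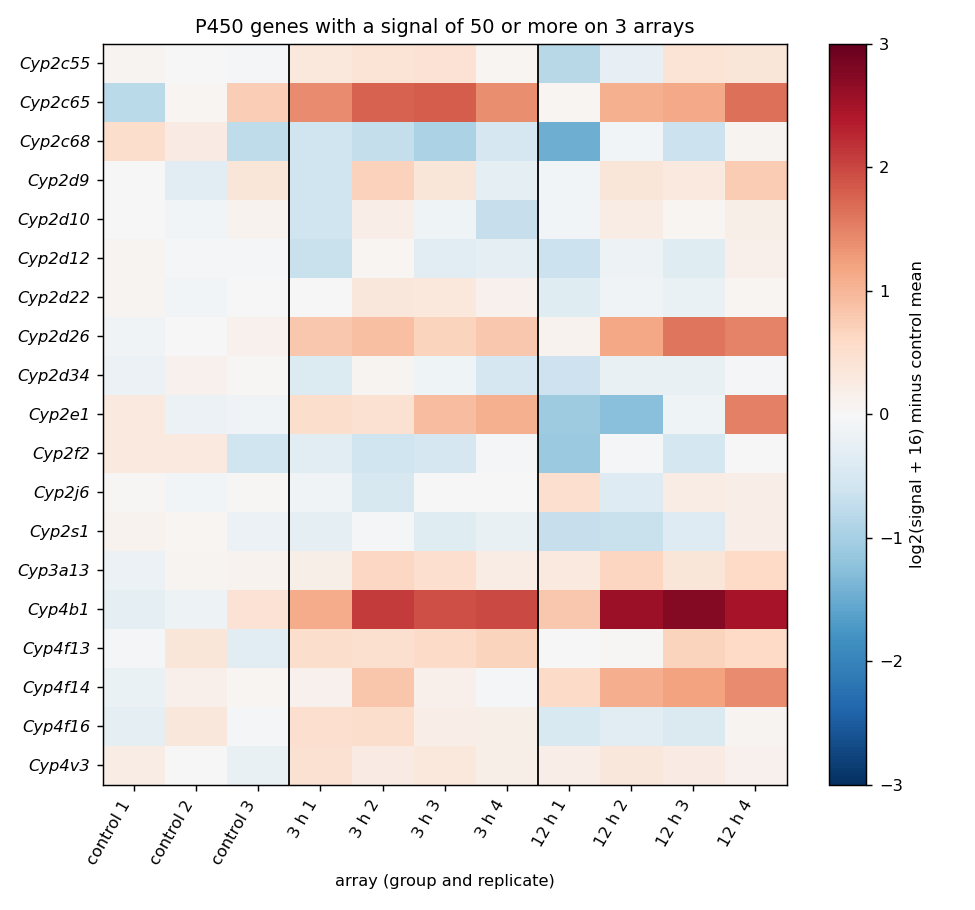
Log2(signal + 16) minus the control mean (colour, from −3 to 3) of the 19 genes with a signal of at least 50 on at least 3 arrays, 1 row per gene and 1 column per array. Cyp2c65, Cyp4b1, Cyp2d26, Cyp3a13, Cyp4f13 and Cyp4v3 are above the control mean on all arrays after imatinib, some of them only slightly. At 12 h Cyp2e1 runs from −1.257 to 1.513, and Cyp2c68 reaches −1.474.

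The P450 genes best known as targets of AhR, CAR and PPAR alpha, namely Cyp1a1, Cyp1a2, Cyp1b1, Cyp2b10 and Cyp4a14, were dim throughout. Cyp1a1, the most inducible AhR target, was at 18.4, 4.9 and 4.1 in control and no higher than 7.5 afterwards. Cyp1a2 did not exceed 6.4 and Cyp1b1 did not exceed 18.8. The CAR target Cyp2b10 did not exceed 13.2 and Cyp4a14 did not exceed 13.0. None of them passed in any comparison, and at such signals the offset leaves little room for a change to show. Cyp2r1, a vitamin D hydroxylase, lay between 9.2 and 22.5.

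Of the 23 nuclear receptors and other factors listed as sensors or regulators of P450 genes, 22 were measured. At 3 h 2 rose, at 12 h 1 fell, and between 12 h and 3 h 2 rose and 1 fell. Counts here stand beside 2.54% of all genes called at 3 h, 1.62% at 12 h and 4.08% between 12 h and 3 h. Cebpb, an acute-phase transcription factor, rose by 1.84 ± 0.18 (SE; limma adjusted p = 0.000319) at 3 h. Its mean was 196.9 ± 39 (SD, n = 3) in control, 742 ± 63.6 (SD, n = 4) at 3 h and 280.6 ± 74.4 (SD, n = 4) at 12 h. Pparg, a fat and colon nuclear receptor that the adipocyte marker list also holds, rose by 0.94 ± 0.15 (SE) at 3 h (limma adjusted p = 0.00657). Ahr itself fell by 0.49 ± 0.10 (SE; limma adjusted p = 0.0401) at 12 h, from a mean of 186.2 ± 19.8 (SD, n = 3) in control to 127.3 ± 8.59 (SD, n = 4). Leaving out any 1 of 10 arrays (each but 3 h replicate 3) ended that call (highest limma adjusted p 0.149). The receptor genes Nr3c1 (glucocorticoids) and Vdr (vitamin D) rose between 3 h and 12 h by 0.65 ± 0.11 (SE; limma adjusted p = 0.00648) and 0.44 ± 0.10 (SE; limma adjusted p = 0.0294), the Vdr call being lost without any 1 of 7 arrays (highest 0.0853). The PXR gene Nr1i2 changed by −0.06 and −0.16 and did not pass. The AhR target Tiparp, a feedback repressor of AhR, rose by 0.94 ± 0.13 (SE; limma adjusted p = 0.00243) at 3 h, the only one called of 4 measured AhR targets outside the Cyp genes, and Nqo1 did not pass.

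The PAR bZIP factors Dbp, Tef and Hlf are circadian activators of P450 and haem genes in liver, and Nfil3 is a repressor that binds the same sites. Dbp was at 83.2, 55.5 and 78.5 in control, 28.2, 46.1, 41.4 and 38.6 at 3 h, and 329.3, 646.6, 503.9 and 529.5 at 12 h, without overlap between any of the groups. It rose by 2.53 ± 0.20 (SE; limma adjusted p = 0.000126) at 12 h, and Tef rose by 1.94 ± 0.13 (SE; limma adjusted p = 2.79e-05). Nfil3 was highest at 3 h, at 8.1, 35.8 and 43.3 in control, 341.4, 291.7, 335.2 and 271.3 at 3 h, and 37.6, 17.0, 35.6 and 5.9 at 12 h. Its 3 h change was 2.95 ± 0.33 (SE; limma adjusted p = 0.000703). Hlf changed by 0.73 ± 0.21 (SE) at 12 h and did not pass (limma adjusted p = 0.105). These 4 genes are also known to vary over the day, and hour and drug cannot be told apart in them; their part in the P450 values was not tested.

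Of 17 genes of electron transfer and haem supply 15 were measured and 1 was called, Alas1, the rate-limiting enzyme of haem synthesis. It was at 429.0, 481.2 and 595.2 in control, 571.6, 483.4, 516.8 and 501.4 at 3 h, and 784.6, 787.7, 988.9 and 1049.1 at 12 h. The 12 h arrays were above all others, while 3 h and control overlapped. The 12 h changes were 0.83 ± 0.14 (SE; limma adjusted p = 0.0164) against control and 0.77 ± 0.13 (SE; limma adjusted p = 0.00654) against 3 h. The first was lost without control replicate 1 or 2 or 12 h replicate 3 (limma adjusted p up to 0.0793). The median change of the 15 genes was 0.01 at 3 h and 0.16 at 12 h. Calls over all genes were 1.62% at 12 h against control and 4.08% between 12 h and 3 h.

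**Figure D4:**
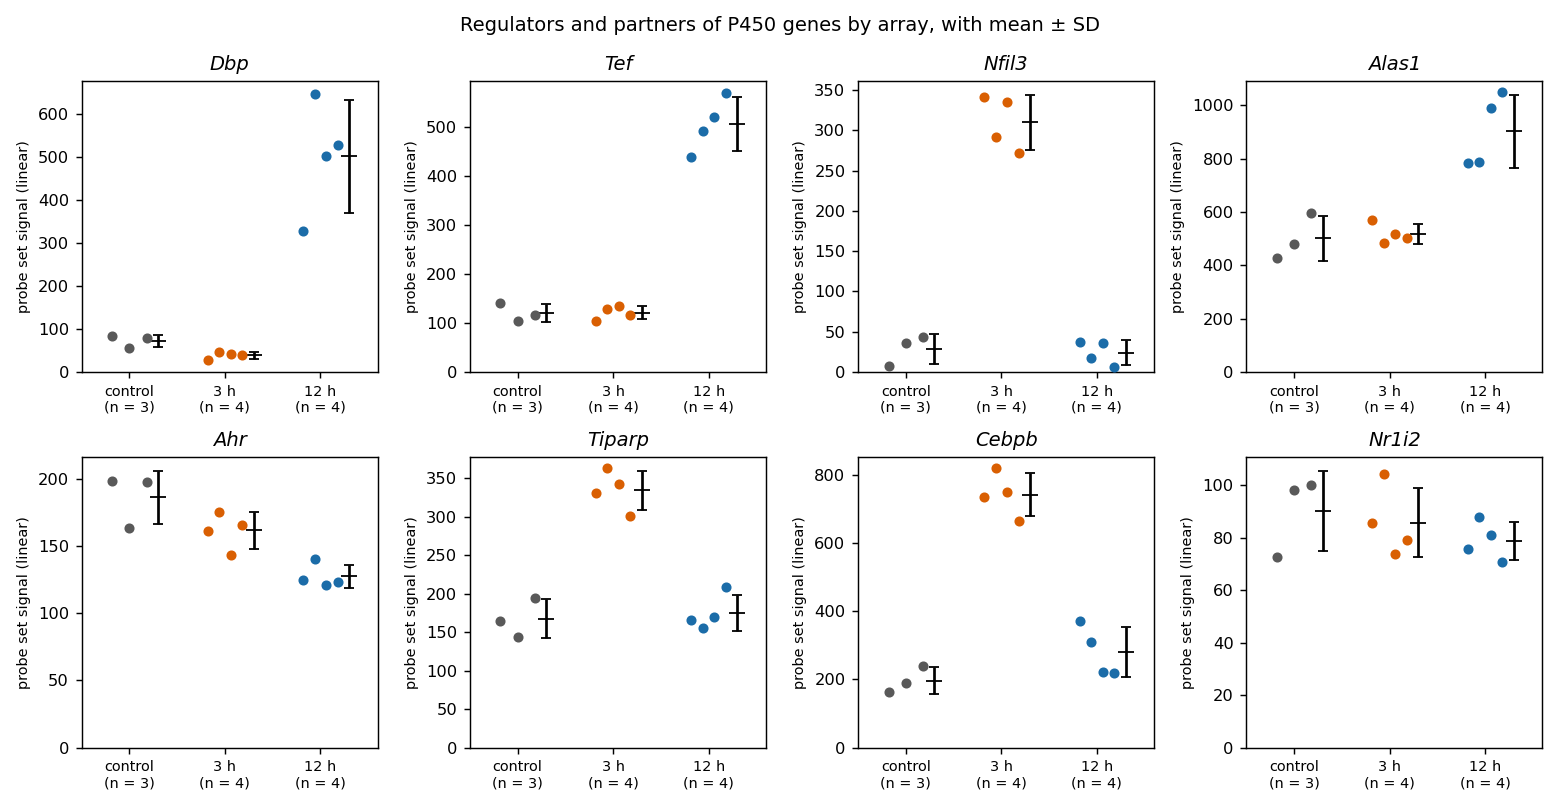
Signal (linear intensity, y axis) of Dbp, Tef, Nfil3, Alas1, Ahr, Tiparp, Cebpb and Nr1i2 on each array, by group on the x axis; points are arrays and bars give the mean ± SD. Nfil3, Tiparp and Cebpb are highest at 3 h, Dbp, Tef and Alas1 are highest at 12 h, and Nr1i2 overlaps in all 3 groups.

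Calls among genes that share substrates or products with these P450s are to be set against 2.54%, 1.62% and 4.08% of all genes called. These shares are for 3 h and 12 h against control, and 12 h against 3 h. Of 19 measured eicosanoid and epoxide enzymes none was called in any comparison. In the same order, 4, 5 and 6 of them had an unadjusted p under 0.05 in limma. The shares over all genes were 15%, 15.8% and 17.7%, lower than those of the 19 enzymes each time. Of 16 measured PPAR alpha targets, Vnn1 (a pantetheinase) rose by 1.18 ± 0.28 (SE; limma adjusted p = 0.0495) and Plin2 (a lipid droplet protein) fell by 0.59 ± 0.12 (SE; limma adjusted p = 0.0282) at 3 h. Plin2 rose again between 3 h and 12 h, by 0.46 (limma adjusted p = 0.047). Of 13 measured retinoid enzymes, the retinaldehyde dehydrogenase genes Aldh1a3 (0.83 ± 0.18 SE at 3 h; limma adjusted p = 0.0308) and Aldh1a1 (1.34 ± 0.26 SE at 12 h; limma adjusted p = 0.0297) rose. Leaving out 1 array ended the calls of Vnn1 (any of 9 arrays), Plin2 (5 at 3 h, 9 between 12 h and 3 h), Aldh1a3 (6) and Aldh1a1 (4), with limma adjusted p up to 0.202.

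Of 13 measured drug transporters, Abcg2, an efflux pump that carries imatinib, fell by 0.73 ± 0.11 (SE; limma adjusted p = 0.00394) between 3 h and 12 h and kept its call without any 1 array. The other 12 transporters were not called. Of the 13, 0, 3 and 3 had an unadjusted p under 0.05 in limma, to be set against 15%, 15.8% and 17.7% of all genes. None of 4 measured flavin monooxygenases was called (0, 1 and 0 with an unadjusted p under 0.05 in limma, against the same shares). Of the 17 P450 genes of other families, which make and break down sterols, bile acids and vitamins, 1 was called: the vitamin D activating enzyme Cyp27b1 fell by 0.50 ± 0.12 (SE; limma adjusted p = 0.0499) at 3 h, at signals of 12 or less, and lost its call without any 1 of 10 arrays (limma adjusted p up to 0.203). The median change of these 17 was 0.04 at 3 h and 0.07 at 12 h, close to the 0.05 of families 1 to 4 at both times.

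Markers of several cell types and of region moved with the groups and stand beside every result above. Shares of all genes called, beside the counts here, were 2.54% at 3 h, 1.62% at 12 h and 4.08% between 12 h and 3 h. Of 10 fibroblast markers 6 fell at 12 h against control and 5 against 3 h, with a mean log2 signal of 9.53 to 9.81 in control, 9.40 to 9.63 at 3 h and 8.96 to 9.02 at 12 h. All 12 h arrays were thus below all others, and Col6a3, a collagen chain, fell by 1.18 ± 0.13 (SE; limma adjusted p = 0.00101) against control. Smooth muscle markers were at 10.50 to 10.74, 10.43 to 10.91 and 9.83 to 10.64; 3 of the 4 arrays at 12 h were below all others, with 0 of 10 markers called against control and 2 falling against 3 h (Actg2 and Des; median changes −0.52 and −0.61). Macrophage markers were at 7.57 to 7.97 in control, 7.30 to 7.56 at 3 h and 7.46 to 7.55 at 12 h, so all arrays after imatinib were below control; Cx3cr1 fell at 3 h and rose between 3 h and 12 h, and Csf1r fell at 12 h. The calls of Col6a3 and Cx3cr1 held without any 1 array, those of Actg2 and Des were lost without any 1 of replicates 1 to 3 at 3 h or 12 h (highest limma adjusted p 0.0736), and that of Csf1r without any 1 array but 12 h replicate 4 (highest 0.141). Of 14 adipocyte markers 3 rose at 3 h and 1 at 12 h. Posterior Hox genes, which mark distal colon, had a mean log2 signal of 6.45 to 6.69 in control, 5.98 to 6.21 at 3 h and 6.50 to 6.58 at 12 h, so all 3 h arrays were below the others. Of these 10 genes 4 fell at 3 h and 4 rose between 3 h and 12 h. Only the rises of Hoxb13 and Hoxd10 held without any 1 array. Anterior Hox and proximal colon genes (12 of 13 measured) were at 5.20 to 5.44, 5.57 to 5.89 and 5.57 to 5.84, so both groups after imatinib were above control. Of the 12 measured, 2 rose at 3 h and 3 at 12 h, and none of these calls held without every 1 array. Mean levels of colon epithelial markers overlapped between the groups (11.75 to 11.88, 11.66 to 11.97 and 11.61 to 11.94), as did those of endothelial (5.78 to 5.91, 5.76 to 5.84 and 5.52 to 5.80), small intestine (5.62 to 5.70, 5.52 to 5.95 and 5.66 to 6.17) and hepatocyte markers (5.30 to 5.41, 5.28 to 5.38 and 5.20 to 5.35). Of the 15 epithelial markers 1 was called, Cdx2, which rose at 3 h. It was at 417.2 to 455.9 in control and 707.1 to 797.5 at 3 h, and the call held without any 1 array. The part of stroma, macrophages, fat, region and pancreatic transcripts in the P450 values was not tested beyond leaving out the 5 arrays high in acinar transcripts.

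**Figure D5:**
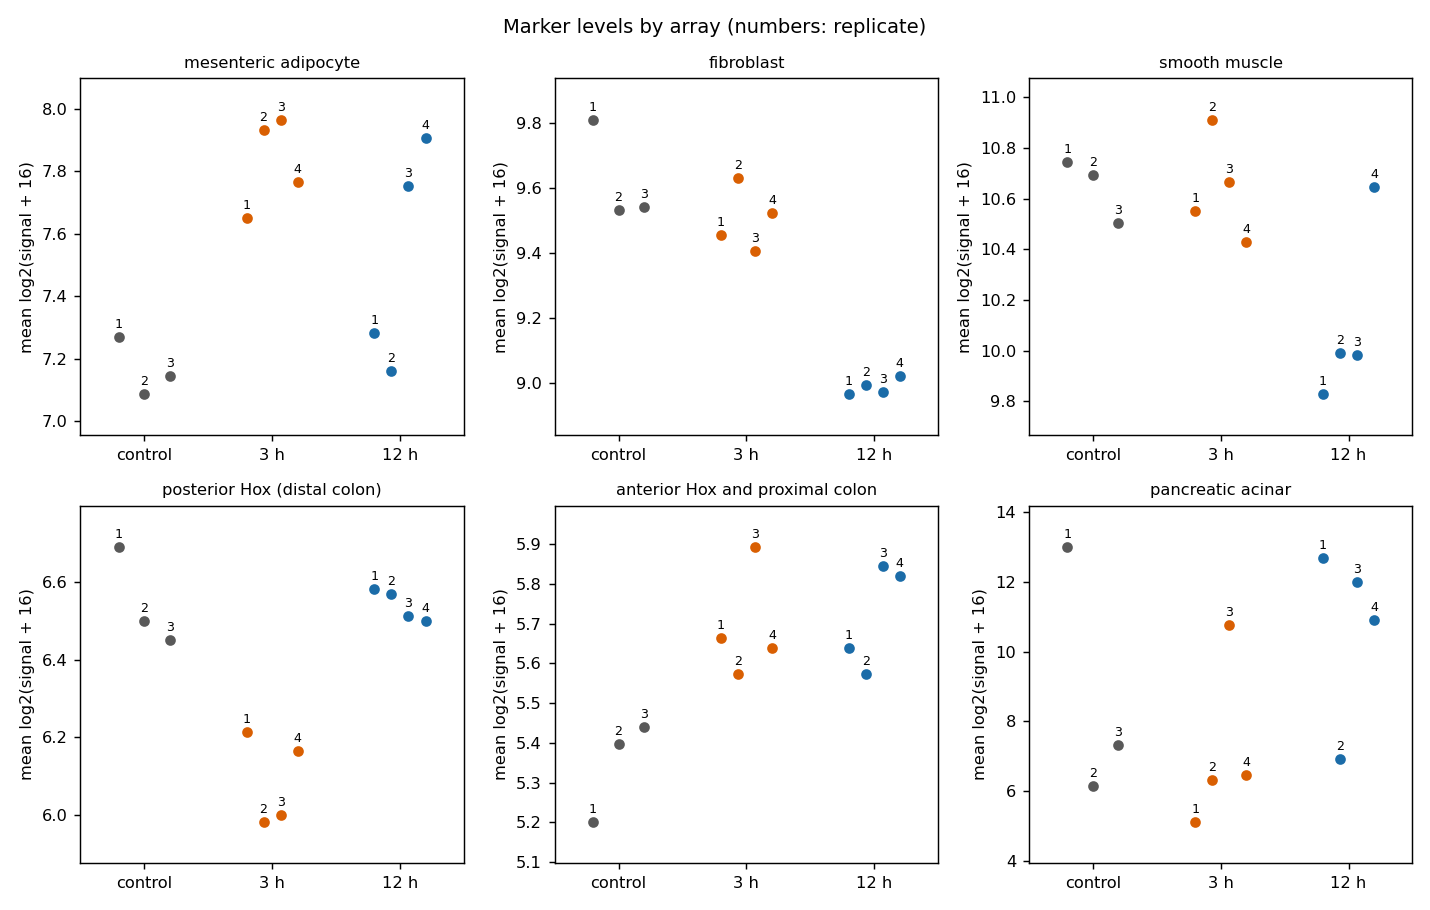
Mean log2(signal + 16) of 6 marker lists (adipocyte, fibroblast, smooth muscle, posterior Hox, anterior Hox and proximal colon, pancreatic acinar; y axis) on each array, by group on the x axis; each point is an array with its replicate number. Fibroblast values at 12 h and posterior Hox values at 3 h lie below the other groups, anterior Hox values after imatinib lie above control, and 5 arrays have acinar values of 10.76 or more.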

How the data were processed

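The deposited series table gives 1 linear intensity per probe set of an Affymetrix mouse 430 2.0 array. The sources used here do not give the authors' summary software. From the values themselves, each deposited array was scaled by 1 factor to a mean of 100 after trimming 2% at each end. Gene symbols come from the platform annotation and were updated to RefSeq through Entrez numbers, 99.42% of which were found. Of 45101 probe sets, 34945 had 1 symbol, and the brightest per gene was kept (18193 genes). The 54 P450 genes had 67 probe sets.

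Signals were transformed as log2(signal + 16), so folds of dim genes are damped and depend on the offset. All 11 arrays were fitted together with limma 3.58.1 in R 4.3.3, 2-sided, with Benjamini-Hochberg adjustment over all genes and calls at an adjusted p under 0.05. The fit was checked on simulated data. No 2 arrays were identical. Python 3.11.15 with matplotlib 3.10.9 drew the figures.

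The P450 genes, gene lists, motifs and tests were chosen with earlier results of these data known. Named were all called genes, the brightest of each subfamily, a fixed set, genes whose arrays did not overlap between groups with a log2 change of at least 0.5, and from each list the called genes. Alternatives covered the offset, scaling, a level filter, probe set handling, array weights, the variance prior, the groups fitted, a replicate block, the threshold and leaving out arrays. No array intensity gives a counting depth, so the number of arrays limits the precision.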

Additional observations from a re-analysis of the deposited data

Results flagged for a closer look

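In groups of 4 arrays, an array was singled out when its gap to the nearest other array took up most of the group's range (Dixon’s criterion). Of 52 groups tested, 4 had such an array, and chance gives about 5%. Cyp4b1 was lowest on replicate 1 at both times: 113.4 at 3 h, where the next array was at 214.1, and 89.8 at 12 h, where the next was at 316.3. These arrays differ in acinar marker level, a mean log2 signal of 5.12 for 3 h replicate 1 and 12.68 for 12 h replicate 1. Cyp3a11 at 12 h was 0.8 on replicate 3 and 5.9 on the next lowest array. Cyp4x1 at 12 h was 13.6 on replicate 3 and 4.0 on the next highest, and all these values of Cyp3a11 and Cyp4x1 lie below the offset of 16.

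The effects at 12 h and 3 h differed for Cyp4f16, with a log2 change of −0.64 between them (limma adjusted p = 0.0483), lower at 12 h on all 4 arrays than on any array at 3 h.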

How the results depend on the processing

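The counts of called P450 genes were small and moved with the processing, while no call changed direction in any alternative. At 3 h the count of 3 became 1 with an offset of 1, with all probe sets tested or with a trended robust prior, and ranged from 0 to 4 when 1 array was left out. At 12 h the count of 2 became 0 with an offset of 1 or with only the 2 groups compared in the fit, 1 with all probe sets tested and 4 at an adjusted p under 0.1, and ranged from 0 to 3 when 1 array was left out. Between 12 h and 3 h the count of 1 became 0 with an offset of 1, equal medians, the mean of a gene's probe sets or all probe sets tested. It became 2 with an offset of 64, a level filter, array weights, a trended robust prior or an adjusted p under 0.1, and ranged from 0 to 2 when 1 array was left out. Without the 5 arrays high in acinar transcripts, an alternative added after seeing the data that leaves 2, 3 and 1 arrays, all 3 counts were 0 (limma; 80, 8 and 16 of all genes were called, against 463, 294 and 742). The single array left at 12 h is then assumed to vary like the other groups. Of 1761 values of single genes under the alternatives, 1682 kept their side of the threshold, 61 lost and 18 gained a call, and 59 values uncalled both ways changed sign.

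No label states whether the replicate numbers pair the samples, and the values do not settle it. Of 10 same-numbered pairs, correlations of deviations ran from −0.208 to 0.309 with 3 over 0.1. An array correlated best with its own number in 7 of 20 cases. With the replicate block the counts were 4, 2 and 0. At 12 h the block ended the call of Cyp4f14 (1.06, limma adjusted p = 0.0542) and made Cyp3a25 pass (1.08, 0.0049), so the 2 genes called were not the same, and between 12 h and 3 h it ended that of Cyp4f16 (0.0779). Signal limits the 28 genes whose mean lies below the offset, where only large changes could be seen.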
